A study of Mus musculus with 4 samples.

Results

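Matrix metalloproteases, their inhibitors and the plasminogen activators were examined in endometriotic lesions of mice, patches of endometrium that grow at sites other than the uterus. The 38 genes were listed by name: 12 matrix metalloproteinases (MMPs) other than the inducible collagenases and stromelysins, 10 ADAMTS proteases, 7 ADAM proteases, 6 protease inhibitors, and 3 genes of plasminogen activation. Of these, 33 had at least 1 probe set with that single symbol among 18193 genes on the array, and 32 of the 33 reached the intensity minimum and were tested among 12797 genes. Mmp15, Mmp25, Mmp28, Adamts2 and Serpine2 were not analysed here. Timp4, the fifth inhibitor on the array, lay under the minimum in all arrays, with intensities of 20.7 and 22.0 on the high-fat diet and 21.0 and 18.0 on the casein diet.

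There were 4 arrays, 2 from lesions of mice on a high-fat diet and 2 from lesions of mice on a casein diet, the labelled control. All animals carried lesions, and the only labelled difference is the diet. The sources used here do not give strain, age, length of feeding or the number of animals and lesions behind each array, so p-values measure only the spread between these samples, which may be technical. Markers of endometrial stroma were bright in every array, with Hoxa10 between 647.2 and 1886 and the progesterone receptor gene Pgr between 2032 and 2761.

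The extracellular matrix of the endometrium is broken down and rebuilt with each cycle, and the enzymes involved are also those by which ectopic tissue settles on the peritoneum. MMPs are zinc enzymes made as inactive precursors, which plasmin, furin-like convertases or other MMPs activate, and the TIMPs block the active enzymes. ADAMTS proteases cut proteoglycans and procollagens in the matrix, whereas ADAM proteases sit in the cell membrane and release growth factors, cytokines and receptors from the cell surface. Urokinase (Plau, bound at the cell by its receptor Plaur) and the tissue activator (Plat) turn plasminogen into plasmin.

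More members had larger than smaller values on the high-fat diet, but none passed the test. The difference, high-fat diet minus casein diet on the log2 scale, was above 0 for 20 of the 32 tested members (62.5%), against 48.6% of all genes tested, and below 0 for 12, against 51.4%. Its median was 0.14, against -0.0051 for all genes tested. Both high-fat diet arrays lay above both casein diet arrays for 6 members (Mmp2, Mmp11, Adamts7, Adamts9, Adam8 and Plau), where the share over all genes was 16.6%. They lay below for 1 member (Plaur), where that share was 19.3%. The count above is close to its share of all genes, and the count below is smaller than its share, which was not tested. In limma's fit with Benjamini-Hochberg adjustment over all 12797 genes, 0 members had an adjusted p under 0.05 (0% of all genes), and 0 had an unadjusted p under 0.05 (4.97% of all genes, 636 genes). The smallest unadjusted p of a member was 0.0544, for Adamts7 (adjusted p = 0.863). With 2 arrays against 2, an exact two-sided permutation test of a single value cannot go below p = 0.333.

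**Figure D1:**
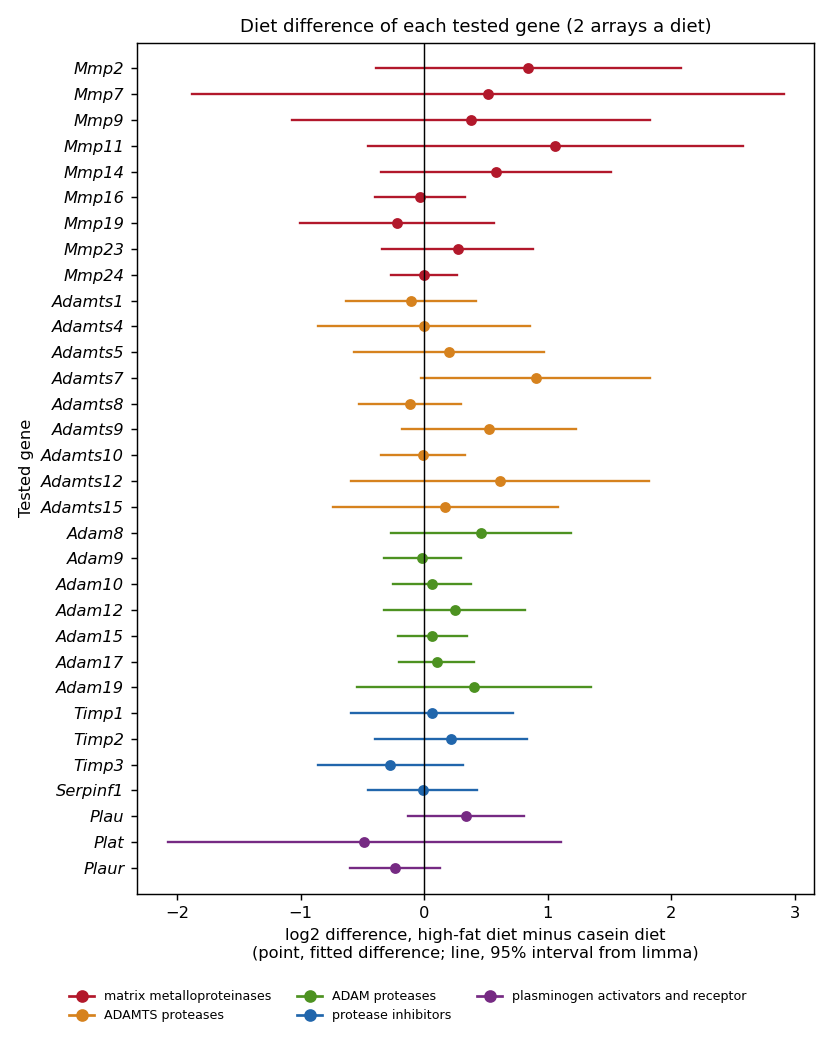
Fitted log2 difference, high-fat diet minus casein diet, of each of the 32 tested genes, with its 95% interval from limma (2 arrays a diet), coloured by class. All 32 intervals include 0, and all 7 differences of 0.5 or more in size are positive.

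A difference of 0.5 log2 or more was found for 7 members, all toward the high-fat diet (4.20% of all genes tested were that much higher and 5.72% that much lower). These were Mmp2, Mmp7, Mmp11, Mmp14, Adamts7, Adamts9 and Adamts12. Another 18 members differed by under 0.25 log2 in size. Members varied more between arrays than most genes did: the median standard error (SE) of their differences was 0.22, against 0.13 for all genes tested.

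Casein diet replicate 1 was the lowest of the 4 arrays for 17 of the 32 members, against 34.5% of all genes, and high-fat diet replicate 1 was the highest for 18, against 23.6%. High-fat diet replicate 2 was the lowest for 7 members (20.8% of all genes) and casein diet replicate 2 the highest for 7 (20.1%). For 11 members casein diet replicate 1 was the lowest and high-fat diet replicate 1 the highest, against 13.6% of all genes. These were Mmp2, Mmp9, Mmp11, Mmp14, Mmp23, Adamts5, Adamts7, Adamts12, Adam8, Adam15 and Timp2. The replicate 1 arrays also stood apart in tissue markers. Gastric markers summed to 415.5 and 427.8 on the high-fat diet and to 65258 and 9984 on the casein diet, with Gkn2 at 22.3 and 17.4 against 14933 and 2548. Skeletal muscle markers summed to 29294 in high-fat diet replicate 1 and 956.8 in replicate 2, and to 853.1 and 1075 on the casein diet. Endometrial stroma markers, all 12 tested, had mean deviations from the 4-array mean of 0.17 and 0.16 log2 on the high-fat diet and -0.44 and 0.11 on the casein diet, and their summed intensity was 46279 and 43450 against 38783 and 45477. Casein diet replicate 1 was the lowest array for 7 of the 12 stroma markers (34.5% of all genes). High-fat diet replicate 1 was lowest for 3 (29.5%) and high-fat diet replicate 2 for 2 (20.8%). Pgr was highest in casein diet replicate 1, at 2761. Other marker lists also differed between the diets. Endothelial markers were higher for 10 of 10 tested, 9 of them with both high-fat diet arrays above both casein diet arrays, and summed to 3217 and 3409 on the high-fat diet and 1986 and 2601 on the casein diet. Smooth muscle markers were higher for 0 of 9 tested, with both high-fat diet arrays below for 8, and summed to 18800 and 16007 against 24981 and 29681. T and NK cell markers were higher for 0 of 10 tested, with both below for 7, and summed to 1160 and 1276 against 2633 and 1416. Casein diet replicate 1 was the highest array for 9 of these 10 (33.3% of all genes). None of these lists had a gene past limma's adjusted threshold. The part of these markers in the members' differences was not tested, and in bulk tissue fewer cells of a type and less RNA per cell cannot be told apart. With high-fat diet replicate 2 and casein diet replicate 2 alone, 13 of 32 members were higher on the high-fat diet (49.4% of all genes). The median difference was then -0.03, against -0.00099 for all genes. That comparison is 1 array against 1 with no test. It was chosen after the members' values were seen and leaves out the arrays where members were most often highest and lowest, which by itself draws the differences toward 0. It also keeps the raised gastric markers of casein diet replicate 2.

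**Figure D2:**
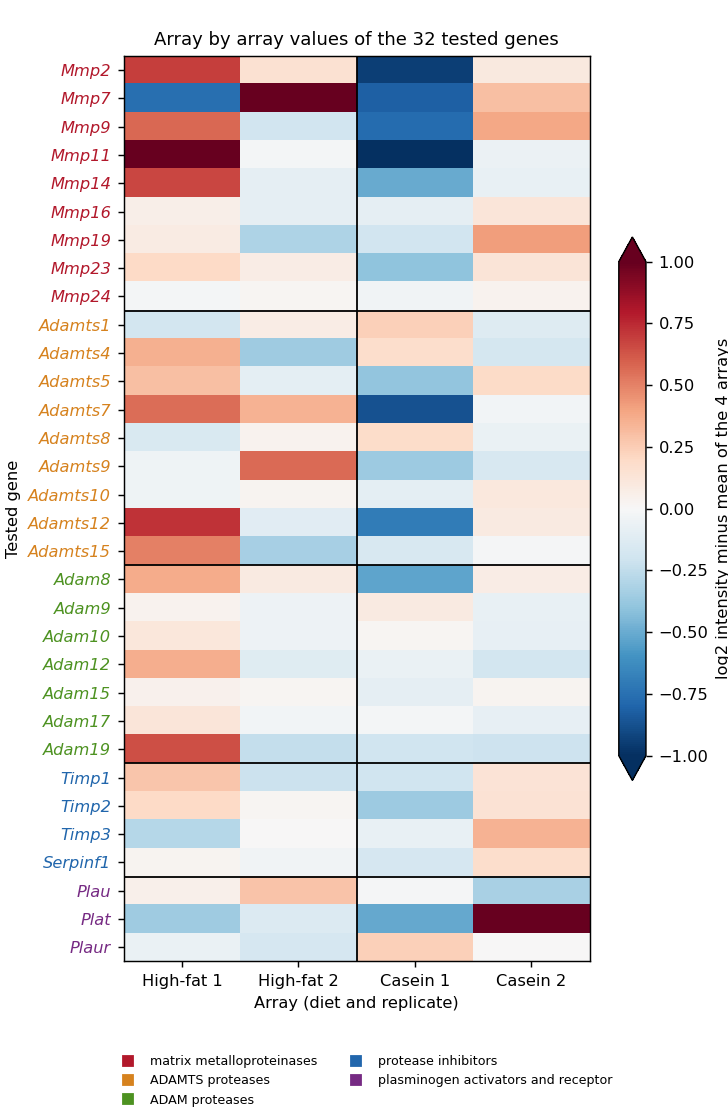
Heat map of log2 intensity minus the mean of the 4 arrays for the 32 tested genes (rows, grouped and coloured by class) in each array (columns, high-fat diet left of casein diet). The colour scale ends at 1 log2 in either direction. Red in high-fat diet replicate 1 beside blue in casein diet replicate 1 recurs for Mmp2, Mmp11, Mmp14, Adamts7, Adamts12 and Adam8.

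Of the 9 MMPs tested, 6 had a difference above 0 and 3 below, with a median of 0.38. Mmp11, known as stromelysin 3 and made by stromal cells next to epithelium, had the largest difference of any member. Its intensities were 524.6 and 243.3 on the high-fat diet and 123.4 and 237.2 on the casein diet. The groups did not overlap, yet the replicate 2 arrays were nearly equal and the distance lay between the replicate 1 arrays. The difference was 1.06 log2 (SE 0.53, 95% interval -0.45 to 2.58, limma adjusted p = 0.863), and it was 0.51 without high-fat diet replicate 1 and 0.59 without casein diet replicate 1.

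Mmp2, the gelatinase that cleaves basement membrane collagen, had 2674 and 1839.6 on the high-fat diet and 860.7 and 1777 on the casein diet. Only casein diet replicate 1 lay far from the others. The difference was 0.84 log2 (SE 0.44, 95% interval -0.39 to 2.08), or 0.32 without casein diet replicate 1. A further probe set of Mmp2 gave nearly the same values (2627 and 1869.6 on the high-fat diet, 861.0 and 1728 on the casein diet). Mmp14, the membrane-type MMP that activates pro-MMP2 at the cell surface, had 4253 and 2517 on the high-fat diet and 1882 and 2546 on the casein diet. High-fat diet replicate 1 was high, and the replicate 2 arrays were level. The difference was 0.58 log2 (SE 0.33), or 0.20 without high-fat diet replicate 1, and 0.48 and 0.55 on further probe sets.

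Mmp7, or matrilysin, an MMP of glandular epithelium that endometrium makes under low progesterone, followed another order. It had 388.1 and 1583 on the high-fat diet and 372.4 and 805.8 on the casein diet. Both replicate 2 arrays were high and both replicate 1 arrays low, so the diets overlapped (difference 0.52 log2, SE 0.84). This was the widest spread of any member, and the sign turned to -0.50 without high-fat diet replicate 2. Of the endometrial epithelium markers (11 tested of 11 on the array), 7, among them Krt8 and Krt19, were highest in casein diet replicate 1, where Mmp7 was lowest. Cldn3, Cldn4 and Pax8 had both replicate 2 arrays above both replicate 1 arrays, as Mmp7 did. The summed intensities of these markers were 4763 and 9241 on the high-fat diet and 23990.5 and 10731 on the casein diet. Casein diet replicate 1 also had the highest sums of gastric markers (65258) and of intestinal epithelium markers. The intestinal sums were 226.7 and 265.7 on the high-fat diet and 4575 and 376.2 on the casein diet. The part of such tissue in the epithelial marker values was not tested.

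Mmp9, the gelatinase stored in neutrophil granules and made by macrophages, had 272.1 and 159.6 on the high-fat diet and 107.2 and 239.0 on the casein diet, with each diet holding a high and a low array (difference 0.38, SE 0.51). The neutrophil markers S100a8, S100a9 and Cxcr2 put the arrays in the same order, and Ltf, Csf3r and Camp did not. The 6 tested of 9 on the array had mean deviations of 0.76 and -0.33 on the high-fat diet and -0.48 and 0.05 on the casein diet. All 9 on the array summed to 9290.3 and 5790.1 against 5053 and 11127, and Ltf alone held 9294 of the last value. The granule genes Mpo and Elane were at 25.8 or below in all arrays, and the part of neutrophils in the values of Mmp9 was not tested. Mmp23, a membrane-anchored MMP of reproductive tissues, had 1023 and 935.1 on the high-fat diet against 675.3 and 972.8 on the casein diet (difference 0.27, SE 0.22, but 0.0076 without casein diet replicate 1). Mmp19, Mmp16 and Mmp24 were dim, between 34.8 and 75.4 in all arrays and thus near the minimum of 33.9, and differed by -0.22 (SE 0.28), -0.03 (SE 0.13) and -0.0017 (SE 0.09).

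**Figure D3:**
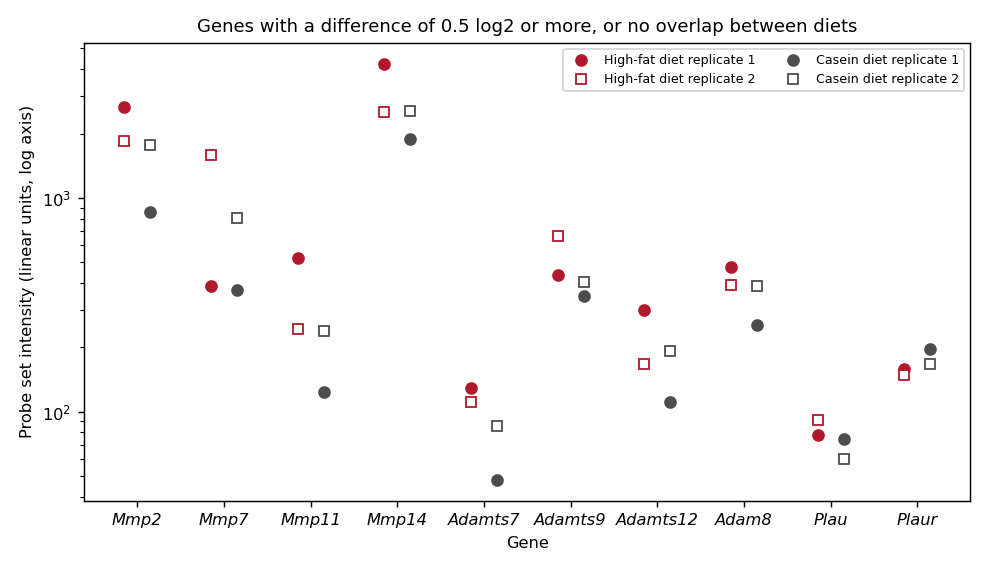
Probe set intensity (log axis) of the 10 genes with a difference of 0.5 log2 or more or with no overlap between diets, in each array; circles are replicate 1 and squares replicate 2, high-fat diet left of casein diet. For Mmp2, Mmp11 and Mmp14 the replicate 2 arrays of the diets are level, whereas Adamts7 and Adamts9 keep a gap between them.

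The promoters of 3 MMP genes are shown because their highest arrays differ. Mmp11 and Mmp14 were highest in high-fat diet replicate 1 and Mmp7 in high-fat diet replicate 2, while all 3 were lowest in casein diet replicate 1. Each covers 250 bases before to 50 bases after the annotated start, from RefSeq on GRCm38.p6, for Mmp11 chr10:75932453-75932752 (minus strand), for Mmp14 chr14:54431348-54431647 (plus strand) and for the upstream of 2 annotated starts of Mmp7 chr9:7691840-7692139 (plus strand). Capitals mark matches on either strand to the AP-1 motif TGANTCA, bound by Fos and Jun factors, or to the GC box GGGCGG, bound by Sp1.
Mmp11: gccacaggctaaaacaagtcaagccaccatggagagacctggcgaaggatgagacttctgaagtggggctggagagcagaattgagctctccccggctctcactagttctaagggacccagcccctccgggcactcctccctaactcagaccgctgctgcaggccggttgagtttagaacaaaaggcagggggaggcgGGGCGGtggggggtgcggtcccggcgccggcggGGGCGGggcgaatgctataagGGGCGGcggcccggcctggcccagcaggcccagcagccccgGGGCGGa
Mmp14: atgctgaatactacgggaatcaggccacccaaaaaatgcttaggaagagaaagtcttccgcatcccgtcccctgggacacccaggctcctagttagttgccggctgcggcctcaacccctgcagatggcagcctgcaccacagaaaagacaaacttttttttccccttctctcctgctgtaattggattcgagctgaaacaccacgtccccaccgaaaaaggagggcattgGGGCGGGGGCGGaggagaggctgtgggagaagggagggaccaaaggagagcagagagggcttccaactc
Mmp7: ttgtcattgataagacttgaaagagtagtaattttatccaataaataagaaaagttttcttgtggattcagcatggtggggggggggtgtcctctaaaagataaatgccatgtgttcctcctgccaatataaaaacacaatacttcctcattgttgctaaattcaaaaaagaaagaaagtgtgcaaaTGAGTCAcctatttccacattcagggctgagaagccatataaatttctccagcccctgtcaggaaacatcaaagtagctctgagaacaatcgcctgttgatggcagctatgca
Mmp11 had 4 GC boxes and Mmp14 had 2, which stand side by side with first bases 19 and 13 bases before the start, and neither had an AP-1 match in this window. The promoter of Mmp7 shown had 1 AP-1 match, 63 bases before the start, and no GC box. It had 2 matches to the TATA motif (TATAAA, either strand), with first bases 123 and 26 bases before the start. It was the one printed because it held the TATA motif. The promoter at the other start of Mmp7 held 0 matches to the AP-1, GC box or TATA motif. Over 32851 promoters of this length, 7.81% held the AP-1 motif, 35.7% a GC box and 13.6% the TATA motif. For the members on the array, 19 of 33 had a promoter in the table (23 in all, since some have several starts), of which 3 held AP-1, 15 a GC box and 2 the TATA motif. A match describes letters only and shows no binding.

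ADAMTS proteases were divided, 5 higher and 4 lower of 9 tested, with a median of 0.17. Adamts7, which degrades cartilage oligomeric matrix protein and is known from vascular smooth muscle, had 128.9 and 111.2 on the high-fat diet and 47.9 and 85.9 on the casein diet. The diets did not overlap and the replicate 2 arrays kept a gap of 0.37 log2. The difference was 0.90 log2 (SE 0.33, 95% interval -0.03 to 1.83), the nearest of any member to excluding 0, and it was 0.48 without casein diet replicate 1. Smooth muscle markers lay the other way (mean deviations of -0.23 and -0.50 on the high-fat diet and 0.23 and 0.50 on the casein diet), and their part in these values was not tested. Adamts9, a versican-cleaving protease, had 436.5 and 665.5 on the high-fat diet and 348.7 and 401.9 on the casein diet. High-fat diet replicate 2 was the high array here, not replicate 1. The difference was 0.53 log2 (SE 0.25), ranged from 0.22 to 0.83 when 1 array was left out, and was 0.58 and 0.36 on further probe sets. Adamts12, which like Adamts7 cleaves cartilage oligomeric matrix protein, had 297.3 and 166.9 on the high-fat diet and 110.9 and 191.6 on the casein diet (difference 0.61, SE 0.43). It overlapped between diets and differed by 0.19 without high-fat diet replicate 1.

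The other ADAMTS genes showed smaller differences. Adamts1, a progesterone-regulated protease of the ovary and uterus, had 531.6 and 636.2 on the high-fat diet and 709.7 and 550.7 on the casein diet (difference -0.10, SE 0.19). The aggrecanase genes Adamts5 and Adamts4 differed by 0.20 (SE 0.27) and -0.0022 (SE 0.30). Adamts4 had 229.9 and 140.1 on the high-fat diet and 202.9 and 159.2 on the casein diet, so both replicate 1 arrays were the higher. Adamts15, Adamts8 and Adamts10 differed by 0.17 (SE 0.32), -0.12 (SE 0.15) and -0.01 (SE 0.12), and Adamts8 was near the minimum, between 34.2 and 43.3.

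Among ADAM proteases, the widely expressed sheddases were the most even members. Adam10, the Notch and cadherin sheddase, had 1527 and 1369 on the high-fat diet and 1436 and 1336 on the casein diet. Adam17, which releases TNF and ligands of the EGF receptor, had 847.9 and 764.5 against 769.3 and 733.6. Their differences were 0.06 (SE 0.11) and 0.10 (SE 0.11), and those of Adam9 and Adam15 were -0.02 (SE 0.11) and 0.07 (SE 0.10). The 95% intervals of these 4 genes lay between -0.33 and 0.40 log2. The signs of such small differences carried little: further probe sets of Adam10 gave -0.07, -0.04 and -0.12, and those of Adam17 gave -0.05 and -0.02.

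The ADAM genes of leukocytes and of remodelling tissue varied more. Adam8, found mainly on myeloid cells, had 476.7 and 391.6 on the high-fat diet and 255.5 and 387.1 on the casein diet. The diets were apart only through casein diet replicate 1 (difference 0.46, SE 0.26, but 0.16 without that array). Macrophage markers had mean deviations of 0.22 and -0.05 on the high-fat diet and -0.10 and -0.07 on the casein diet (12 tested of 12, summed 32732 and 26134 against 27741 and 27234), and their part in the values of Adam8 was not tested. Adam19, which can shed neuregulin, had 729.4 and 394.4 on the high-fat diet and 405.8 and 404.8 on the casein diet. A single array, high-fat diet replicate 1, was high, and without it the difference of 0.40 (SE 0.33) was -0.04. Adam12, linked with fusing muscle cells and with growing stroma, likewise had 561.4 in that array and 400.6, 415.7 and 383.9 in high-fat diet replicate 2 and on the casein diet. Its difference of 0.25 (SE 0.20) was 0.0040 without that array, which was also the one with high skeletal muscle markers (mean deviation 4.37). Their part in the values of Adam12 was not tested. In all, 6 of the 7 ADAM genes were higher, with a median of 0.10.

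Of the 4 inhibitors tested, 2 had a difference above 0 and 2 below, with a median of 0.03. The lower ones were Timp3 and Serpinf1. Timp1, the inducible inhibitor, had 629.0 and 449.0 on the high-fat diet and 453.7 and 570.8 on the casein diet. Each diet held a high and a low array, and the difference was 0.06 (SE 0.23, 95% interval -0.59 to 0.72). Timp2, which blocks MMP2 and also helps MMP14 to activate it, had 3031 and 2673 on the high-fat diet and 2049.6 and 2923 on the casein diet (difference 0.22, SE 0.22). Only casein diet replicate 1 was low, and without it the difference was -0.04. Timp3, the inhibitor that stays bound to the matrix and also blocks ADAM17 and ADAMTS proteases, had 1094 and 1337 on the high-fat diet and 1262 and 1697 on the casein diet. Its diets overlapped and casein diet replicate 2 was the high array (difference -0.28, SE 0.21). All 4 probe sets of Timp3 gave a lower value on the high-fat diet, from -0.25 to -0.42. Serpinf1, pigment epithelium-derived factor, an antiangiogenic serpin that inhibits no protease, had 1706 and 1635 against 1494 and 1898 (difference -0.01, SE 0.15).

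The plasminogen activators and their receptor went different ways. Plau, urokinase, had 77.7 and 91.3 on the high-fat diet and 74.1 and 59.7 on the casein diet. The diets did not overlap, though 1 array of each lay close together (difference 0.34, SE 0.17, 95% interval -0.13 to 0.81), and a second, dimmer probe set gave 0.31. Plaur, its receptor, was the only member with both high-fat diet arrays below both casein diet arrays, at 158.7 and 148.1 against 196.2 and 166.7 (difference -0.24, SE 0.13, 95% interval -0.60 to 0.12). Plat, the tissue activator made by endothelium and stroma, had 663.6 and 772.6 on the high-fat diet and 593.9 and 1693 on the casein diet. One array, casein diet replicate 2, held its difference of -0.49 (SE 0.56), which was 0.27 without that array and -1.24 without casein diet replicate 1. A second, dimmer probe set of Plat gave only -0.07, with 59.0 and 50.1 on the high-fat diet and 40.1 and 81.2 on the casein diet. Endothelial markers had mean deviations of 0.19 and 0.30 on the high-fat diet and -0.44 and -0.05 on the casein diet, and their part in the values of Plat was not tested. The promoter of Plaur is shown because, like a promoter of Adam19 not printed here, it held both motifs marked above (chr7:24462233-24462532, plus strand, GRCm38.p6, with the same capitals).
Plaur: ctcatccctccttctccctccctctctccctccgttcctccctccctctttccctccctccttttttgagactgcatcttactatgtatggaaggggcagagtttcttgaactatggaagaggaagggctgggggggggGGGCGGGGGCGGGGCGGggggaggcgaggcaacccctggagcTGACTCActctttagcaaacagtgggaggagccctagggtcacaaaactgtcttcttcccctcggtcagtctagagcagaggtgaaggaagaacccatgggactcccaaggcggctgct
It had 1 AP-1 match, 69 bases before the start, and 3 adjoining or overlapping GC boxes, with first bases 111, 105 and 100 bases before it.

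Members with several probe sets mostly pointed the same way. The 33 members had 74 probe sets. Of 29 further probe sets above the intensity minimum, 22 had the sign of the brightest one. The others were 1 of Mmp16 (0.16 against -0.03), 1 of Adamts4 (0.20 against -0.0022), and the 3 of Adam10 and 2 of Adam17 given above.

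When each array was left out in turn, 14 of the 32 members kept their sign: Mmp2, Mmp11, Mmp14, Mmp23, Adamts7, Adamts9, Adamts12, Adam8, Adam12, Adam15, Adam17 and Plau above 0, and Timp3 and Plaur below 0. Members whose diets did not overlap must keep their sign, and the share over all genes was not counted. The size of the difference moved by over 1.5 times for all 32. Without casein diet replicate 1, 19 members were higher (46.8% of all genes) and the median was 0.04 (-0.01 for all genes). Without high-fat diet replicate 1, these were 18 (50.1%) and 0.01 (0.00041).

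**Figure D4:**
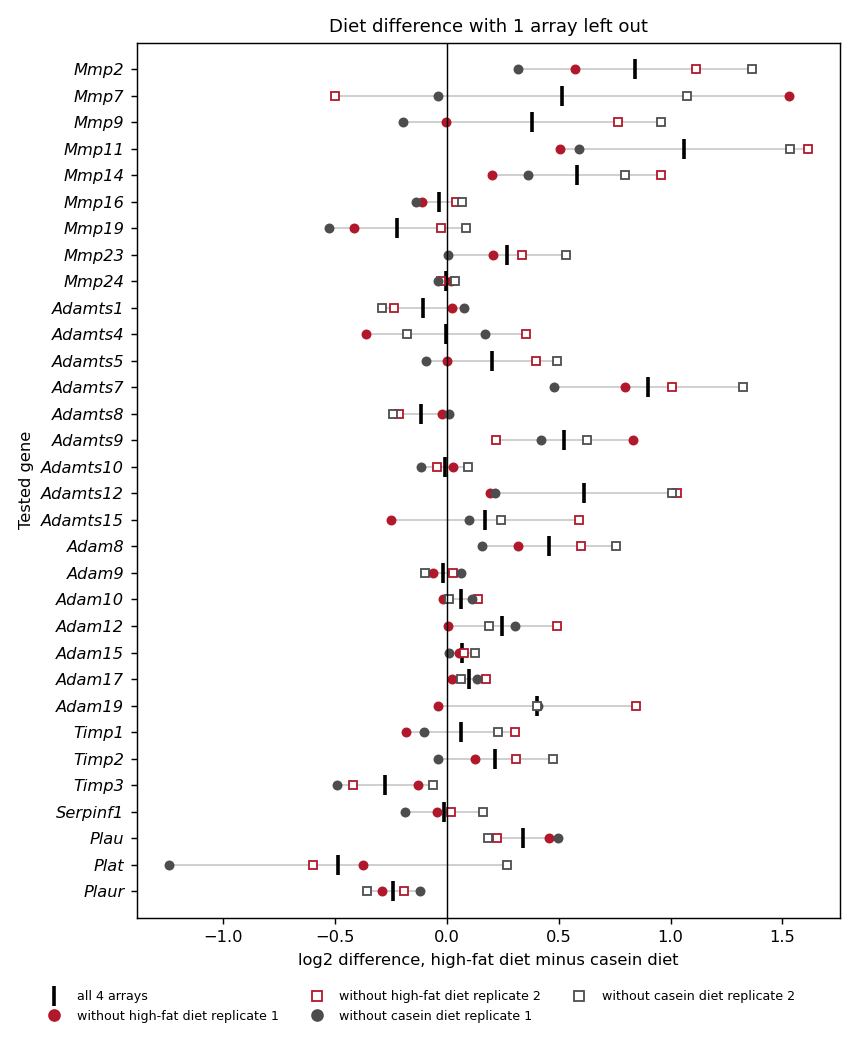
Log2 difference, high-fat diet minus casein diet, of each tested gene with all 4 arrays (bar) and with 1 array left out (red, a high-fat diet array; grey, a casein diet array; filled, replicate 1; open, replicate 2). The lowest values are 0.48 for Adamts7, 0.22 for Adamts9, 0.32 for Mmp2 and 0.51 for Mmp11, and Mmp7, Mmp9 and Plat cross 0.

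Other genes of matrix proteolysis were counted from lists of pathway genes, and 0 of them passed limma's test over all genes. Of the remaining MMPs, 4 of 6 tested were higher (Mmp3, Mmp8, Mmp10 and Mmp13), each with a larger difference than any member, and Mmp12 and Mmp17 were lower (median of the list 1.62). An unadjusted p under 0.05 was found for 4 of the 6, namely Mmp3, Mmp8, Mmp13 and the lower Mmp17, against 4.97% of all genes. Mmp13 and Mmp8, the collagenases, and Mmp3, stromelysin 1, differed by 3.66 (SE 0.40), 2.31 (SE 0.35) and 1.95 (SE 0.33). Unlike Mmp2, Mmp11 and Mmp14, they were apart in the replicate 2 arrays as well. For Mmp3 these held 361.7 on the high-fat diet and 142.1 on the casein diet. That contrast between genes was not tested. Mmp8 had 147.0 and 78.1 on the high-fat diet but 19.9 and 23.4 on the casein diet, both under the intensity minimum of 33.9. It was tested only because its high-fat diet values raised its mean, and its difference rests on casein diet values near the floor. Mmp13 had 831.2 and 470.6 on the high-fat diet and 38.9 and 63.2 on the casein diet, the latter also near the minimum. Mmp10 had 315.3 and 84.9 on the high-fat diet and 72.2 and 63.0 on the casein diet. Its difference of 1.28 (SE 0.70) lay mainly in high-fat diet replicate 1.

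Among proprotein convertases (2 of 4 higher, median 0.03), Pcsk5 differed most, with 1426 in both high-fat diet arrays and 392.2 and 813.8 on the casein diet (difference 1.34, SE 0.39, unadjusted p = 0.0293, adjusted p = 0.863 in limma). Furin, which activates pro-MMP14 and pro-MMP11, had 189.7 and 169.0 on the high-fat diet and 159.4 and 165.3 on the casein diet (difference 0.14, SE 0.11), and Pcsk7 differed by -0.13 (SE 0.12). Other ADAM and ADAMTS genes were mostly lower (6 of 8, median -0.09), with differences of -0.52 (SE 0.12) for Adam22, an ADAM without protease activity, -0.30 (SE 0.16) for Adam33 and -0.21 (SE 0.15) for the procollagen protease gene Adamts3. Regulators of plasmin and of protease clearance were also mostly lower (6 of 9, median -0.13). Anxa2, part of a cell-surface receptor for plasminogen and Plat, differed by -0.34 (SE 0.15), Serpinf2, the plasmin inhibitor, by -0.19 (SE 0.14), and Lrp1, which clears proteases bound to inhibitors, by 0.31 (SE 0.22).

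All 10 cathepsins and cystatins tested were higher on the high-fat diet (48.6% of all genes were), with a median of 0.24 and 0 with an unadjusted p under 0.05. The lysosomal proteases Ctsb and Ctsl differed by 0.33 (SE 0.16) and 0.70 (SE 0.36), and the inhibitor Cst6 by 0.59 (SE 0.36). Cst6 was near the intensity minimum of 33.9, with 67.6 and 34.7 on the high-fat diet and 31.1 and 33.3 on the casein diet. Only high-fat diet replicate 1 lay well above that minimum. The mean deviations of this list were 0.33 and 0.0053 on the high-fat diet and -0.33 and 0.0022 on the casein diet, so its means were far apart in the replicate 1 arrays and close in the replicate 2 arrays. Of 13 substrate genes tested 8 were higher, with a median of 0.15. Lamb1, a laminin chain, differed by 0.43 (SE 0.12), the basement membrane gene Nid1 by 0.39 (SE 0.20) and Vcan, the versican substrate of ADAMTS proteases, by 0.57 (SE 0.37).

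**Figure D5:**
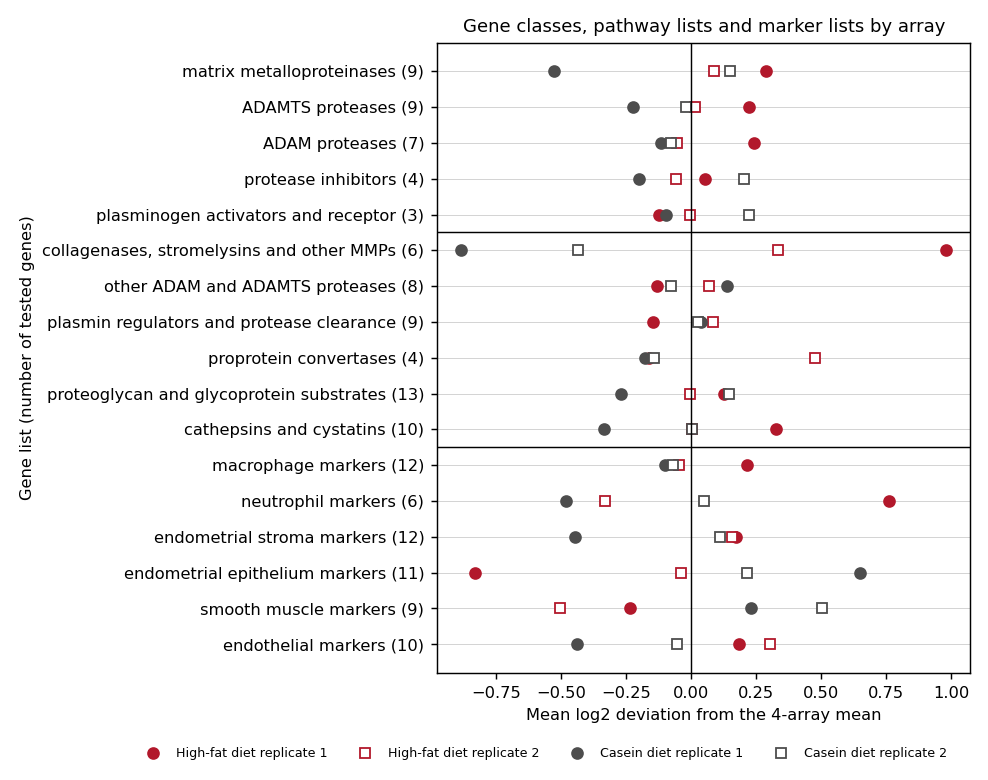
Mean deviation of log2 intensity from the 4-array mean for the 5 gene classes (top), 6 lists of other matrix proteolysis genes (middle) and 6 marker lists (bottom), in each array, with the number of tested genes. MMPs lie at 0.29 and 0.09 on the high-fat diet and -0.53 and 0.15 on the casein diet. The mean of the stroma markers is likewise lowest in casein diet replicate 1, the lowest array for 7 of the 12 (34.5% of all genes).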

How the data were processed

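Total RNA from endometriotic lesions was labelled by in vitro transcription and hybridised to Affymetrix 3′ expression arrays, per the labels' protocols. The authors deposited 1 linear intensity for each probe set. GCOS and RMA are named per the submitters' processing notes, and the step that gave linear values is not stated there. Array medians were nearly equal (55.1 to 56.5). Normalising between arrays hides a shift shared by most genes. No detection calls, scan dates or slides were used.

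Of 45101 probe sets (64 controls), 34945 had 1 gene symbol in the platform annotation, 932 several and 9160 none. Those with 1 symbol were used, and all 74 probe sets of members matched the reference gene table. The probe set with the highest mean log2 value was kept for each of 18193 genes, and 12797 genes at or above the 40th percentile (intensity 33.9) were tested with limma 3.58.1 (R 4.3.3) on log2 values with no pseudocount (two-sided p, adjusted by Benjamini-Hochberg over every tested gene, 3.80 total degrees of freedom). The fit was tested on simulated data.

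Members, lists and rules were chosen with earlier results of these data known. Values by array were due for members that did not overlap and differed by at least 0.5 log2, for the 10 largest differences and for examples of each class. Up to 3 genes of each other list, those with the smallest p, are named. Alternatives were median centring, quantile normalisation, a block for the replicate number, other filters, the mean of all probe sets, a pseudocount of 16, a trended prior, a threshold of 0.10 and leaving out each array. The replicate 2 arrays alone were added after seeing the data. Figures used matplotlib 3.10.9.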

Additional observations from a re-analysis of the deposited data

How the results depend on the processing

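Over the 4 fits that left out 1 array, the count of all genes passing limma's test ranged from 0 to 17 (17 without casein diet replicate 2, none of them a member), members higher on the high-fat diet from 18 to 26, members with both high-fat diet values above from 7 to 20 and below from 4 to 8, and the median from 0.01 to 0.22. Leaving an array out makes non-overlap easier, and the share of all genes was then 27.7% to 38.6% above and 31.6% to 38.7% below. The share of all genes higher on the high-fat diet was 46.5% to 50.3% in these fits. With the replicate 2 arrays alone, that share was 49.4%. The fits with 1 array in a diet assume that it varies like the others. Differences that changed sign ranged from -0.50 to 1.53 for Mmp7, -0.20 to 0.96 for Mmp9, -0.14 to 0.069 for Mmp16, -0.53 to 0.084 for Mmp19, -0.039 to 0.035 for Mmp24, -0.29 to 0.079 for Adamts1, -0.36 to 0.36 for Adamts4, -0.092 to 0.49 for Adamts5, -0.24 to 0.0091 for Adamts8, -0.11 to 0.094 for Adamts10, -0.25 to 0.59 for Adamts15, -0.095 to 0.065 for Adam9, -0.016 to 0.14 for Adam10, -0.039 to 0.85 for Adam19, -0.18 to 0.31 for Timp1, -0.039 to 0.47 for Timp2, -0.18 to 0.16 for Serpinf1, -1.24 to 0.27 for Plat. With the replicate 2 arrays alone, 13 members were higher, the median was -0.027, and reversed differences were -0.58 for Mmp9, -0.016 for Mmp14, -0.057 for Mmp23, 0.21 for Adamts1, -0.29 for Adamts5, 0.11 for Adamts8, -0.20 for Adamts12, -0.32 for Adamts15, 0.021 for Adam9, -0.0012 for Adam15, -0.038 for Adam19, -0.35 for Timp1, -0.13 for Timp2. Quantile normalisation reversed Adamts4 (0.0079), Adam9 (0.0034) and Serpinf1 (0.016), the mean of all probe sets reversed Adamts4 (0.10) and Adam10 (-0.043), and a pseudocount of 16 reversed Adamts4 (0.00054). No member passed under any alternative. Apart from the fits that left out arrays, 20 to 23 members were higher with all members tested (18 of 26 with the 60th percentile filter, 19 of 29 with the mean of probe sets), and 0 genes passed. With the replicate number as a block, 0 genes passed and 576 had an unadjusted p under 0.05, against 636 without it. The labels do not say what a shared replicate number stands for. Over all genes tested, the deviations of same-numbered samples had a correlation of -0.02, and whether they share a batch was not tested. The cause of these shifts was not tested. Precision is limited by having 4 arrays, and Mmp16, Mmp19, Mmp24 and Adamts8 lie close to the intensity minimum.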

Other observations

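Outside the members, 3 protease genes varied widely between arrays of the same diet. Mmp12, the macrophage elastase, had 994.3 and 1343 on the high-fat diet and 1307 and 3591 on the casein diet, with casein diet replicate 2 high as for Plat. Pcsk6, a convertase, had 52.3 and 335.5 on the high-fat diet and 181.8 and 108.7 on the casein diet, a difference of -0.09 (SE 1.01). Adamdec1, an ADAM-like protease of macrophages, had 98.4 and 430.3 on the high-fat diet and 244.4 and 77.5 on the casein diet, so that both a high and a low array lay in each diet. These genes were chosen after their values were seen.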
